A study of Homo sapiens with 12 samples.

Results

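The HCC70 line is a long-established model of triple-negative breast cancer, the group of breast tumours that lack hormone receptors and HER2. Here 9 genes that mark basal identity in the breast were followed at their promoters and in the surrounding chromatin: KRT5, KRT6B, KRT14, KRT17, TP63, EGFR, FOXC1, SOX9 and SOX10. They are 9 of 20098 protein-coding genes on chromosomes 1 to 22 and X and were named for their role in basal cells. Cells received vehicle or XY018, an antagonist of the nuclear receptor RORγ, for 24 h. The labels give XY018 at 5 µM, whereas the methods of the study give a lower dose. Chromatin was precipitated with antibodies to SREBP2, RORγ or H3K27ac, the RORγ antibody being a rabbit serum, and each of the 6 combinations of antibody and treatment was 1 library. The 6 input libraries were not analysed here. All libraries came from the same line, so no difference between treatments has a replicate check and no p-value is given.

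Basal cells of the mammary duct rest on the basement membrane and are told from the inner luminal cells by their keratins, adhesion proteins and transcription factors. KRT5 and KRT14 form the keratin pair of basal epithelium, and KRT6B and KRT17 are keratins of stressed or proliferating stratified epithelium. TP63 encodes p63, the transcription factor that maintains basal progenitors, and EGFR encodes the epidermal growth factor receptor. FOXC1, SOX9 and SOX10 are transcription factors linked to basal-like tumours or to progenitor states. SREBP2 is the principal activator of cholesterol synthesis genes, RORγ is a ligand-regulated nuclear receptor, and H3K27ac marks active promoters and enhancers. None of these 9 genes belongs to the cholesterol pathway.

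A region is a peak that the authors called in 1 library. The number of DNA fragments stacked at its summit was recovered from the deposited fold enrichment and p-value, and is called the fragments of that region. Depth recovered in the same way ran from 3.65 to 6.16 tags per kb of genome, and the depth with XY018 over that with vehicle was 1.07 in SREBP2, 0.905 in RORγ and 0.913 in H3K27ac libraries. The SREBP2 lists held 117441 (vehicle) and 69700 (XY018) regions, the RORγ lists 167264 and 129954, and the H3K27ac lists 95099 and 105371. The H3K27ac lists are part of longer call sets. The promoter window reached 1000 bp before and 100 bp beyond every annotated start of a transcript, and coordinates are hg19. An absent region means that no peak was called, not that no fragments were there.

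The 9 genes did not share a single chromatin pattern. EGFR, FOXC1 and SOX10 had all 3 marks at their promoters under both treatments. SOX9 carried H3K27ac, and the strongest regions of both factors in its locus lay inside the gene, with others upstream. The keratin genes and TP63 had few factor regions at their promoters, and KRT6B had no promoter region in any library.

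The sequences under the strongest SREBP2 promoter regions with vehicle are shown for EGFR, FOXC1, SOX9 and SOX10, 4 of the 5 genes called for SREBP2, to show where the factor was called at these genes. Each is the hg19 plus strand around the summit, 201 bases long except for SOX10, where bases annotated as untranslated were left out. Capitals mark GC boxes (GGGCGG or its complement CCGCCC), the motif bound by SP family factors.
EGFR, chr7:55086974-55087174, summit in the first intron: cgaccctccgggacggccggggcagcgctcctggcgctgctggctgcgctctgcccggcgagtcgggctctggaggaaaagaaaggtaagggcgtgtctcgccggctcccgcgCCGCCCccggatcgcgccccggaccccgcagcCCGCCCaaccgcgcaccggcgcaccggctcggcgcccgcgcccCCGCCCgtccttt
FOXC1, chr6:1609196-1609396, upstream of the start: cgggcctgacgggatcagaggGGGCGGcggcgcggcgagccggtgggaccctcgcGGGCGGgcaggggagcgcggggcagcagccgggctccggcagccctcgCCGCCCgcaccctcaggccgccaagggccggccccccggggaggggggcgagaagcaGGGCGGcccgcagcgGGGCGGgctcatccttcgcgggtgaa
SOX9, chr17:70116390-70116590, upstream of the start: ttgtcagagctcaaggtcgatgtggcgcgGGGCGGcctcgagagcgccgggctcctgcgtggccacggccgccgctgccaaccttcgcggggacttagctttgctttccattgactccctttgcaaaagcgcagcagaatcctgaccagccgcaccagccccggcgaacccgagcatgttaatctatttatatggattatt
SOX10, chr22:38379664-38379791, coding, 128 bases: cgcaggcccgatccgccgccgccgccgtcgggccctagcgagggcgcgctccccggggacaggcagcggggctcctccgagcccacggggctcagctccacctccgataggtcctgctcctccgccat

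The windows shown were rich in G and C, with 78.6% in EGFR, 82.1% in FOXC1, 59.7% in SOX9 and 80.1% in the full SOX10 window. Over the 5 called genes, at least 1 GC box stood within 100 bp of the summit in 4, the exception being SOX10. Of all SREBP2 promoter regions with vehicle, 57.3% held a GC box, and of all SREBP2 regions, 30.1%. The sterol regulatory element TCACNCCAC was in none of the 5 windows and in 0.974% of all SREBP2 promoter regions. The RORE core was in none (0.121% of promoter regions), nor was the nuclear receptor motif AGGTCA (7.88%), the AP-1 site TGANTCA (1.42%) or the CCAAT box (9.15%). Both strands were searched for every motif, and the RORE core can contain AGGTCA. At the 5 RORγ promoter summits with vehicle, GC boxes stood near those of KRT14, KRT17, EGFR and FOXC1, against 54.6% of all RORγ promoter regions, and the other 5 motifs were absent as well.

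Sequences away from the promoters are shown for a pair of sites at which SREBP2, RORγ and H3K27ac were all called under both treatments. The first lies in the last exon of SOX9 and the other upstream of EGFR.
SOX9 exon site, chr17:70119986-70120186, around the SREBP2 summit, coding: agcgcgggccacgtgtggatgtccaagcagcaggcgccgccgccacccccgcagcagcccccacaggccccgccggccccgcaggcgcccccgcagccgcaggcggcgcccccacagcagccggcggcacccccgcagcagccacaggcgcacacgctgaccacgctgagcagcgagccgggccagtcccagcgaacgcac
EGFR upstream site, chr7:55072237-55072437, around the RORγ summit: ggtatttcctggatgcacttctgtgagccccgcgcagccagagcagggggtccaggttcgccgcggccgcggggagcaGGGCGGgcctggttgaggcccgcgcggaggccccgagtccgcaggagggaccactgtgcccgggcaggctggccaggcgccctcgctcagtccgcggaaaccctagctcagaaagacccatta

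Capitals again mark GC boxes. The SOX9 window (79.1% G and C) held none of the 6 motifs, and the EGFR window (70.6%) held 1 GC box. Both windows were rich in G and C, and the searched elements of SREBP2 and RORγ were found in neither. Over all SREBP2 regions with vehicle, 2.42% held the sterol regulatory element within 100 bp of the summit. Over all RORγ regions with vehicle, 0.216% held the RORE core and 25.6% AGGTCA. Absence from these windows is thus not particular to them.

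The keratin genes came first in the comparison of promoters. KRT5 (chr12:52908359-52914314, minus strand) had H3K27ac at its promoter, with 33 fragments with vehicle (exact Poisson 95% interval 22.7 to 46.3) and 22 with XY018 (13.8 to 33.3). Both summits lay in the coding part of the first exon, 316 and 332 bp past the nearest start. Scaled by the genome-wide background of each library, the XY018 pileup was 0.730 times that of vehicle, and the interval of this ratio, 0.406 to 1.29, included 1. No SREBP2 or RORγ region touched a KRT5 promoter. The nearest SREBP2 region with vehicle was in a coding exon near the end of the gene, with 15 fragments, and no region was called there with XY018. H3K27ac at that exon had 11 and 13 fragments.

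KRT6B (chr12:52840435-52845930, minus strand) has 1 annotated start, and none of the 6 libraries had a region in its promoter. The closest H3K27ac regions began 1684 bp upstream with vehicle (13 fragments) and 1822 bp upstream with XY018 (16 fragments). An SREBP2 region of 8 fragments lay 1813 bp upstream with vehicle, and with XY018 the closest was 17747 bp away.

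KRT14 (chr17:39738531-39743147, minus strand) was the only one of the 9 genes with a factor region at its promoter and no H3K27ac region there. SREBP2 had 11 fragments with vehicle (5.49 to 19.7) and no region with XY018. RORγ had 11 fragments with vehicle and 8 with XY018, at a ratio of 0.804 (0.281 to 2.19). The SREBP2 and RORγ summits with vehicle were both in the coding part of the first exon, 201 and 208 bp past the start. The closest H3K27ac regions were 6149 bp from this start with vehicle and 6157 bp with XY018, downstream of the gene.

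KRT17 (chr17:39775694-39781094, minus strand) had weak regions only. RORγ had 5 fragments with vehicle (1.62 to 11.7) and 6 with XY018 (2.20 to 13.1). H3K27ac had 8 fragments with vehicle and 18 with XY018, but the regions lay apart, at chr17:39779699-39780138 and chr17:39780491-39781012. They lay at different annotated starts and were not treated as a pair. SREBP2 was not called at the KRT17 promoter in either library.

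TP63 (chr3:189349178-189615065, plus strand) has starts in 2 clusters, the upstream one for the long p63 isoforms and an internal one for the amino-terminally shortened isoforms that prevail in basal epithelium. The upstream cluster had an H3K27ac region of 16 fragments with vehicle (9.15 to 26.0; fold enrichment 3.76) and none with XY018, where the closest region was 34783 bp away. At the internal cluster the nearest H3K27ac region was 783 bp off with vehicle (12 fragments) and 9237 bp off with XY018 (23 fragments). Neither SREBP2 nor RORγ was called at either cluster. H3K27ac was thus weak near both clusters with vehicle and was called near neither with XY018.

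EGFR (chr7:55086710-55279321, plus strand) had the highest H3K27ac of the 9 promoters, with 231 fragments with vehicle (202 to 263) and 255 with XY018 (225 to 288). SREBP2 had 58 fragments with vehicle and 42 with XY018. RORγ had 35 and 34 fragments. The pileup ratios were 0.613 (0.402 to 0.928) for SREBP2, 1.07 (0.650 to 1.77) for RORγ and 1.21 (1.01 to 1.45) for H3K27ac.

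FOXC1 (chr6:1610150-1614132, plus strand) showed the same arrangement. SREBP2 had 54 fragments with vehicle and 33 with XY018, at a ratio of 0.517 (0.325 to 0.813). RORγ had 37 and 27 fragments, at 0.807 (0.472 to 1.36), and H3K27ac had 142 and 168, at 1.30 (1.03 to 1.63). With vehicle a single SREBP2 region of 1869 bp and a single RORγ region of 2195 bp covered the promoter. With XY018 SREBP2 was split into 2 regions and RORγ into 3. The H3K27ac summit moved within 1 broad region, from 322 bp past the start to 331 bp before it.

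SOX9 (chr17:70117161-70122557, plus strand) had 109 H3K27ac fragments with vehicle and 123 with XY018, at a ratio of 1.24 (0.947 to 1.61). The vehicle summit was 336 bp past the start and the XY018 summit 2926 bp past it, within a region that spanned both, so the pair compares different summits. A separate vehicle region over the exon site had 89 fragments. SREBP2 at the promoter had 8 fragments with vehicle (3.45 to 15.8) and no region with XY018. Just beyond the promoter window, regions beginning 153 bp and 150 bp past the start held 29 (vehicle) and 15 (XY018) SREBP2 fragments, and with XY018 a further region of 23 fragments followed. RORγ regions beginning 114 bp and 134 bp past the start held 14 and 20 fragments, again with a further region of 18 with XY018. SOX9 thus counted as lacking RORγ at the promoter only by the edge of the window.

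SOX10 (chr22:38366693-38383429, minus strand) has 9 annotated starts, and its strongest factor regions lay over the first coding exon. SREBP2 had 69 fragments with vehicle and 47 with XY018, at a ratio of 0.577 (0.389 to 0.848). RORγ had 69 and 60, at 0.961 (0.669 to 1.38). H3K27ac had 40 and 41, at 1.12 (0.708 to 1.78). Among the 9 promoters, both factors had their highest number of fragments here, although H3K27ac was lower than at EGFR, FOXC1 and SOX9.

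**Figure D1:**
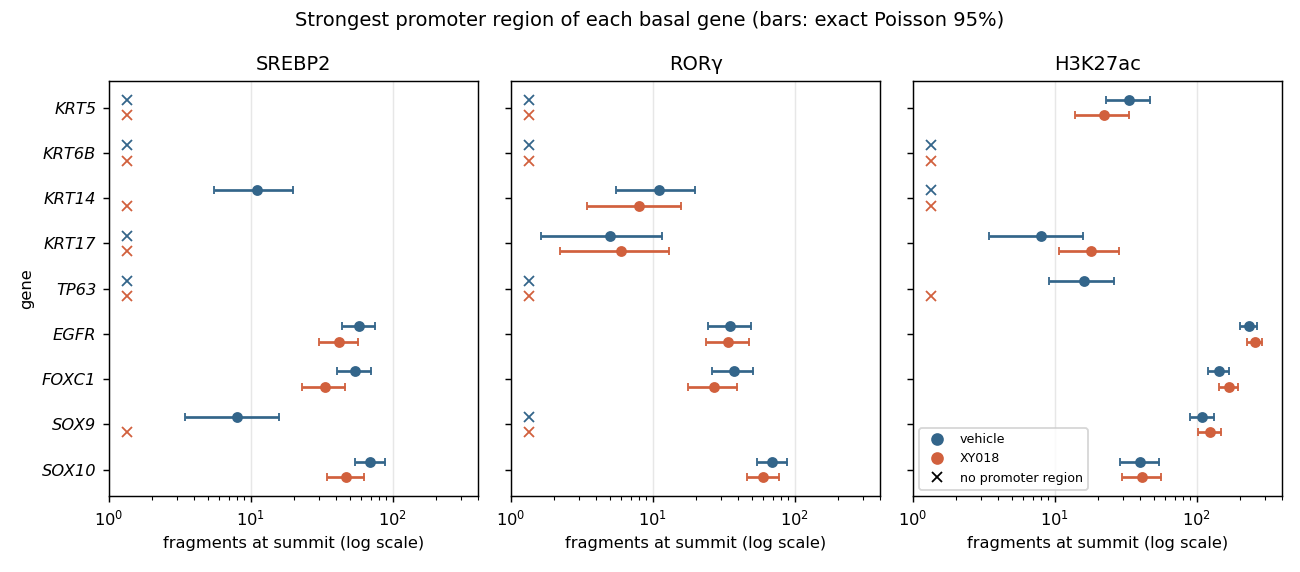
Fragments at the summit of the strongest promoter region of each of the 9 genes, on a log axis, with vehicle in blue and XY018 in orange. Bars are exact Poisson 95% intervals for counting error in 1 library, crosses mark genes with no promoter region, and EGFR stands highest for H3K27ac with 231 and 255 fragments.

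Counted over the 9 genes, SREBP2 promoter regions were present at 5 genes with vehicle and 3 with XY018. Of all protein-coding genes, 70.6% had one with vehicle and 62.7% with XY018. RORγ was called at 5 genes with vehicle and at the same 5 with XY018, beside 62.6% and 61.5% of all genes. H3K27ac regions were present at 7 genes with vehicle and 6 with XY018, beside 66.8% and 68% of all genes. Factor calls at these genes were thus no more frequent than over the genome with this window, although with 5 kb either side of a start SREBP2 with vehicle was called at 8 genes, beside 81.1% of all genes.

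The promoter calls lost with XY018 were KRT14 and SOX9 for SREBP2 and TP63 for H3K27ac. Over all genes called with vehicle, 12.5% lost the SREBP2 call, 8.26% the RORγ call and 3.25% the H3K27ac call. All 3 lost regions were weak, with 11, 8 and 16 fragments. None of the 5 RORγ calls was lost.

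SREBP2 was called in both libraries at 3 genes, all of which had a lower pileup with XY018 (median ratio 0.577). Among all 12337 genes called in both, 98% were lower and the median was 0.621, which lay inside the interval of EGFR, FOXC1 and SOX10. When scaled by tags per kb, the median of the 3 genes was 0.639. For RORγ 3 of 5 genes were lower, with a median of 0.961, beside 55.3% of all genes and a median of 0.967. For H3K27ac only KRT5 of 5 genes was lower, beside 19.6% of all genes, and the medians were 1.21 and 1.27. Each of these 13 intervals included the median over all genes. The calls found in 1 library only, and KRT17 H3K27ac, could not be compared in this way.

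**Figure D2:**
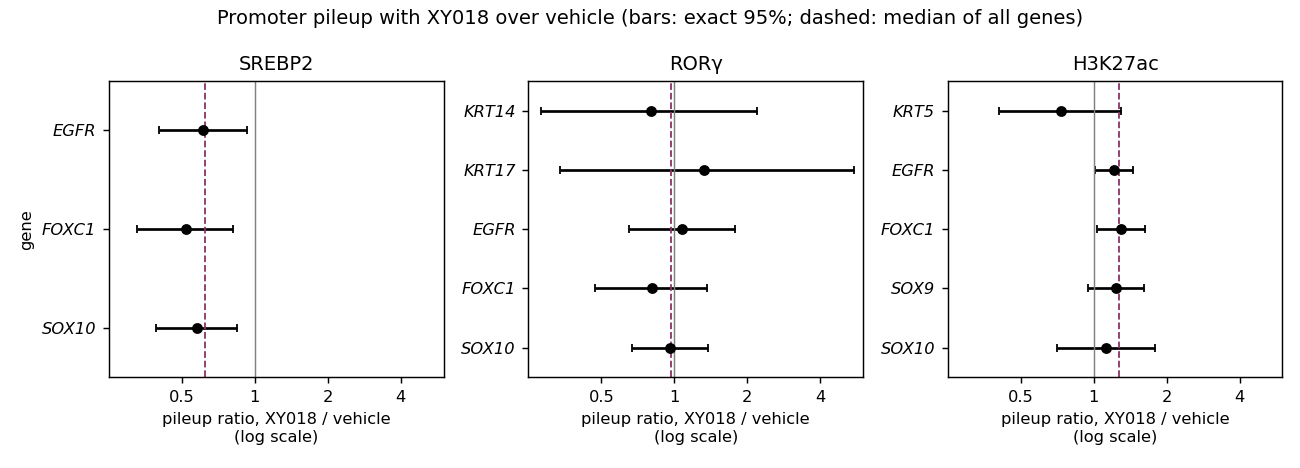
Ratio of promoter pileup over genome-wide background, XY018 over vehicle, on a log axis, for genes with overlapping promoter regions in both libraries of an antibody. Bars are exact 95% intervals, the grey line is 1, and the dashed line is the median of all protein-coding genes (0.621 for SREBP2, 0.967 for RORγ, 1.27 for H3K27ac), which every bar crosses.

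The base composition of the promoters separated the genes in a way the choice of genes did not use. The ratio of observed to expected CpG in the promoter of 1 start per gene, the start with the most transcripts or, on a tie, the outermost, was 0.880 in FOXC1, 0.780 in SOX9 and 0.669 in EGFR. It was 0.344 in TP63, 0.272 in KRT17, 0.250 in SOX10, 0.249 in KRT14, 0.202 in KRT5 and 0.179 in KRT6B, and the median over all genes was 0.583. All 3 genes with a ratio of at least 0.6 had SREBP2 and H3K27ac at the promoter with vehicle. Of the 6 genes under it, 2 had SREBP2 and 4 had H3K27ac. Over all genes the SREBP2 shares were 88.4% and 54.3% in these classes, and the H3K27ac shares 87.2% and 48.1%. RORγ with vehicle was at 2 of the 3 genes and 3 of the 6, beside 77.3% and 49.3% of all genes. The value for SOX10 describes its outermost start, not the GC-rich exon where the factors were called. That for TP63 describes the internal cluster, whereas its H3K27ac call was at the upstream one. The vehicle H3K27ac region of KRT17 was likewise at another start than the one described.

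Beyond the promoters, each gene was followed with 50 kb on either side, which gave 7 loci because the windows of KRT6B and KRT5, and those of KRT14 and KRT17, overlap. H3K27ac covered 12.9% of the EGFR locus with vehicle and 13.8% with XY018. It covered 20.8% and 22.6% at SOX10, 15% and 13.3% at FOXC1, 12.9% and 10.5% at SOX9, and 7.69% and 6.79% at TP63. Around single keratin genes the shares were 18.5% and 17.5% for KRT17, 7.55% and 6.89% for KRT14, 6.40% and 5.38% for KRT6B, and 3.16% and 2.69% for KRT5. With vehicle all 9 values were above the median of all protein-coding genes, 3.08%, and with XY018 all except KRT5 were above 3.21%. The median over the 9 genes was 12.9% with vehicle and 10.5% with XY018, and over 12 luminal genes it was 11.1% and 13.0%.

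Factor coverage split the genes instead. SREBP2 covered 13.5% of the FOXC1 locus and 10.1% of the SOX10 locus with vehicle, above 92.0% and 87.6% of genes. It covered 3.69% around EGFR, 2.77% around SOX9 and 2.28% around KRT17, near the median of 2.13%. It covered 1.16% around KRT14, 0.679% around KRT5, 0.613% around KRT6B and 0.489% around TP63. RORγ followed a like order, from 13.4% at FOXC1 and 7.17% at SOX10 to 0.227% at KRT5 and KRT6B, around a median of 2.51%. Dense factor regions were thus found around FOXC1 and SOX10, and few around TP63 and KRT5.

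**Figure D3:**
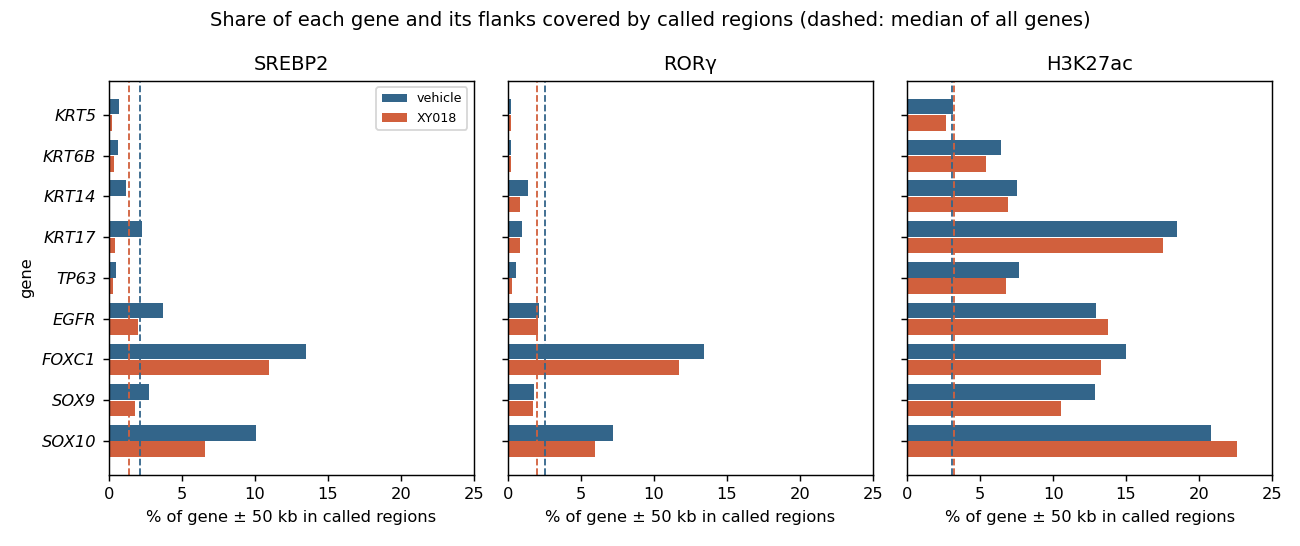
Percent of each gene and its 50 kb flanks that lies in called regions, for each antibody, with vehicle in blue and XY018 in orange; dashed lines are the medians of all 20098 protein-coding genes in the same colours. The vehicle H3K27ac bars exceed the vehicle median of 3.08% for all 9 genes, the KRT5 bar with XY018 (2.69%) is below its median of 3.21%, and factor bars are far above their medians at FOXC1 and SOX10.

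In the 7 loci together, SREBP2 regions numbered 99 with vehicle and 56 with XY018, RORγ regions 60 and 52, and H3K27ac regions 234 and 232. The whole SREBP2 list was also shorter with XY018, with 69700 regions beside 117441 with vehicle. Within the loci, SREBP2 regions were fewer with XY018 in every one. They numbered 23 and 12 at EGFR, 28 and 18 at SOX10, 20 and 14 at FOXC1, and 7 and 5 at SOX9. At KRT14 and KRT17 there were 9 and 2, at KRT6B and KRT5 6 and 2, and at TP63 6 and 3. Of the 99 vehicle regions, 40 overlapped an XY018 region, a kept share of 40.4% (exact binomial 95% interval 30.7 to 50.7), beside 39.8% of all SREBP2 regions. RORγ kept 35 of 60, or 58.3% (44.9 to 70.9), beside 36.4% over the genome. H3K27ac kept 156 of 234, or 66.7% (60.2 to 72.7), beside 69.3%. The interval of the RORγ share lay above the genome-wide value, but it treats neighbouring regions of 1 library as independent. By locus, RORγ kept 11 of 17 regions at FOXC1, 9 of 16 at SOX10, 7 of 10 at EGFR and 4 of 4 at SOX9. It kept only 2 of 6 at KRT14 and KRT17, 2 of 6 at TP63 and 0 of 1 at KRT6B and KRT5. Strength of the regions was not matched.

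The overlap of antibodies within the loci was set beside the genome-wide shares. With vehicle, 61.7% of the 60 RORγ regions (48.2 to 73.9) overlapped an SREBP2 region, beside 34.6% of all RORγ regions, and 58.3% (44.9 to 70.9) overlapped H3K27ac, beside 16.7%. Of the 99 SREBP2 regions, 40.4% (30.7 to 50.7) overlapped RORγ, an interval that included the 49.0% of all SREBP2 regions, and 48.5% (38.3 to 58.7) overlapped H3K27ac, beside 27.3%. With XY018 the share of SREBP2 regions that overlapped RORγ was 64.3%, beside 64.0%. Most H3K27ac regions with vehicle stood without either factor: 19.7% (14.8 to 25.3) overlapped SREBP2 and 14.5% (10.3 to 19.7) overlapped RORγ, beside 32.1% and 27.9%. Of the 234 H3K27ac regions, 13 lay at a promoter of the 9 genes, 6 at promoters of other genes, 8 in exons, 76 in introns and 131 outside the genes.

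The EGFR locus held many separate H3K27ac regions in the gene body, with 54 intronic regions under both treatments. The site upstream of EGFR, 14373 bp before the first start, had 47 SREBP2 fragments with vehicle and 45 with XY018. RORγ had 49 and 61 fragments there, and this was its strongest region in the locus, and H3K27ac had 59 and 42. The ratio for RORγ was 1.38 (0.929 to 2.05). SREBP2 at this site thus changed less in number than at the EGFR promoter, although the interval of its ratio, 0.527 to 1.25 around 0.811, overlapped that of the promoter.

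At TP63 the strongest factor site was again upstream, 35170 bp before the first start. SREBP2 had 26 fragments with vehicle and 28 with XY018, RORγ had 37 and 31, and H3K27ac had 36 and 38. The counting intervals of the ratios included 1, at 0.912 (0.515 to 1.62) for SREBP2 and 0.926 (0.556 to 1.53) for RORγ. Inside the gene, an SREBP2 region of 22 fragments in a coding exon, 18639 bp past the internal starts, was not called with XY018. The strongest H3K27ac of the locus was downstream of the gene, with 78 and 72 fragments. H3K27ac regions at TP63 numbered 52 with vehicle and 43 with XY018, and the kept regions had a median ratio of 1.01.

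**Figure D4:**
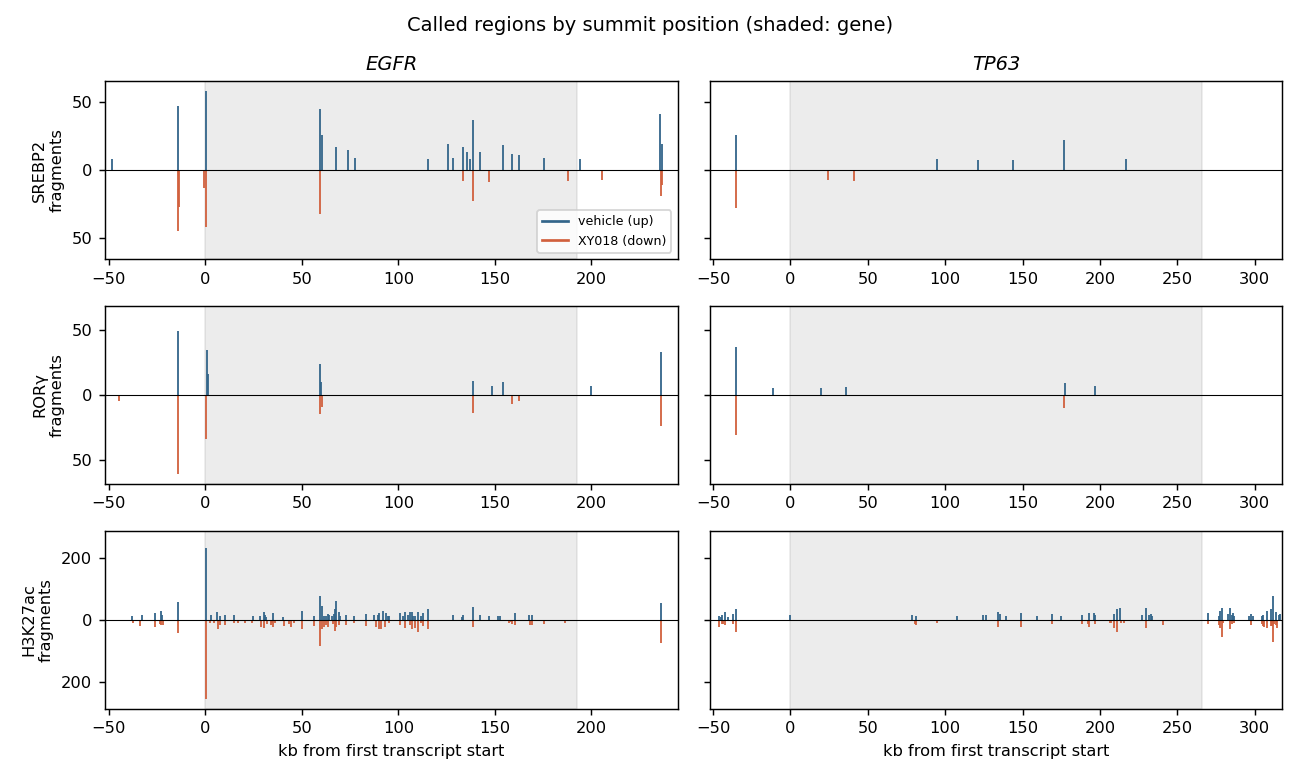
Called regions around EGFR and TP63, placed by summit in kb from the first transcript start along the direction of transcription, with the gene shaded. Lines give fragments, upward for vehicle and downward for XY018; the upstream sites 14373 bp before EGFR and 35170 bp before TP63 carry all 3 antibodies under both treatments.

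FOXC1 was surrounded by strong factor sites on both sides. The strongest SREBP2 region lay 9725 bp past the start, with 56 fragments with vehicle and 44 with XY018, at a ratio of 0.665 (0.438 to 1.01). RORγ at the same region had 58 and 65 fragments, and H3K27ac had 51 and 38. The strongest H3K27ac region began in the gene and had its summit just past its end, 4848 bp from the start, with 180 and 205 fragments, more than at the promoter. An SREBP2 region of 22 fragments, 15156 bp before the start, was not called with XY018.

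At the SOX9 exon site the numbers under both treatments were close for both factors. SREBP2 had 32 fragments with vehicle and 31 with XY018, at a ratio of 0.820 (0.484 to 1.39), and RORγ had 22 and 20, with a ratio interval of 0.520 to 1.93. It was the strongest region in the locus for SREBP2 under both treatments. All 4 RORγ regions of the SOX9 locus were kept with XY018.

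At SOX10 the strongest H3K27ac was not at the promoter but 29559 bp upstream, with 149 fragments with vehicle and 145 with XY018, at a ratio of 1.07 (0.842 to 1.35). SREBP2 and RORγ overlapped it under both treatments. A further region at the innermost SOX10 start had 43 and 36 SREBP2 fragments and 28 and 36 RORγ fragments. H3K27ac regions in the locus numbered 35 with vehicle and 45 with XY018. SOX10 lies in a gene-dense stretch beside MICALL1 and POLR2F, and some of these regions were at promoters of such neighbours.

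**Figure D5:**
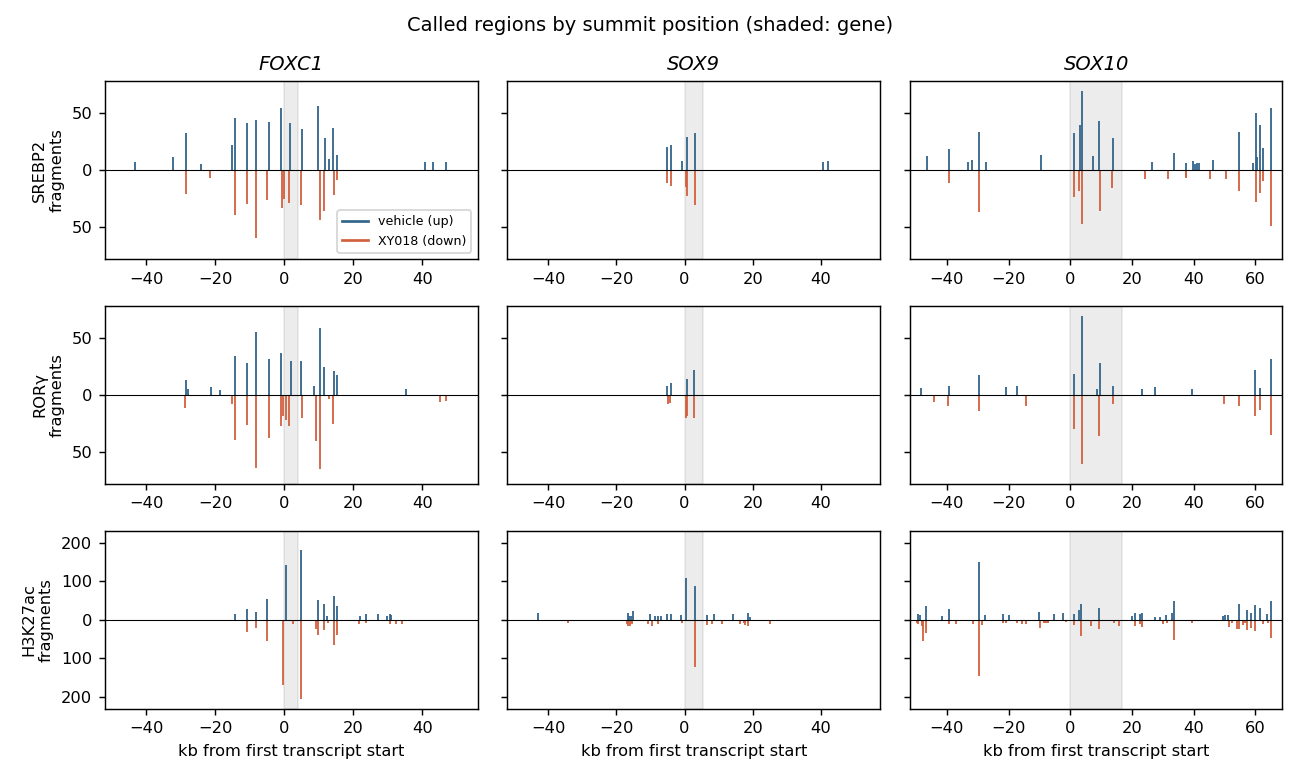
Called regions around FOXC1, SOX9 and SOX10, placed by summit in kb from the first transcript start along the direction of transcription, with the gene shaded. Lines give fragments, upward for vehicle and downward for XY018; the H3K27ac site 29559 bp upstream of SOX10 stands above its promoter, with 149 and 145 fragments.

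In the keratin loci some strong regions were distal. Upstream of KRT17, 30355 bp from the start, H3K27ac had 70 fragments under both treatments, at a ratio of 1.10 (0.775 to 1.55). The strongest SREBP2 region of that locus, 41218 bp upstream of KRT17, had 18 fragments with vehicle and none called with XY018, while H3K27ac over it had 48 and 63. In the KRT6B and KRT5 locus, an H3K27ac region 34574 bp past the KRT6B start had 31 fragments with vehicle, close to the 33 at the KRT5 promoter, and 48 with XY018, at a ratio of 1.70 (1.06 to 2.76). In this whole locus RORγ had 1 region with vehicle, of 7 fragments, and 2 elsewhere with XY018, of 7 and 5 fragments.

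Kept regions of the 7 loci were then read against the median ratio of all kept regions of the same antibody. For SREBP2, 37 of 40 were lower with XY018 and the median was 0.593, beside 0.616 over the genome. For RORγ the medians were 1.11 and 1.11, and for H3K27ac 1.11 and 1.15. The number whose counting interval lay wholly below the genome-wide median was 0 of 40 for SREBP2 (1.46% of all kept regions), 0 of 35 for RORγ (1.39%) and 5 of 156 for H3K27ac (2.5%). The number wholly above it was 2 of 40 (1.85%), 2 of 35 (2.61%) and 1 of 156 (6.68%).

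The regions that stood apart were few and can be named. Both SREBP2 regions were at FOXC1, at chr6:1601595-1602233 with 44 and 59 fragments and at chr6:1621606-1621912 with 28 and 36. The ratios were 1.14 (0.756 to 1.72) and 1.09 (0.646 to 1.85). These intervals lay above the genome-wide median of 0.616 but included 1, and the deposited fold at chr6:1621606-1621912 was 11.7 and 11.0. A RORγ region at the second site, chr6:1621553-1621934, had 24 fragments with vehicle and an overlapping region of 65 with XY018, at a ratio of 2.99 (1.85 to 5.00). The XY018 region there was broad, and the 65 fragments are those of the FOXC1 downstream site already given. The other RORγ region, chr7:55087726-55088127 in the first EGFR intron, had 16 and 34 fragments. Its XY018 partner was likewise the promoter region, which with vehicle had been called separately.

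For H3K27ac, 2 of the 5 lower regions were in EGFR introns. At chr7:55154179-55155028 fragments numbered 61 with vehicle and 22 with XY018, at a ratio of 0.395 (0.231 to 0.653), with a fold enrichment of 17.0 and 7.93. At chr7:55224893-55225323 they numbered 43 and 23, at 0.586 (0.337 to 0.994). The first had an SREBP2 region with vehicle and none with XY018, and the second had SREBP2 and RORγ under both treatments. Another 2 were at the SOX10 locus, with 41 and 24 fragments at chr22:38328235-38329310 and 27 and 11 at chr22:38422351-38423113, and 1 lay downstream of TP63, with 35 and 19 fragments at chr3:189659560-189660073. The 1 higher region, chr22:38350272-38351237 with 17 and 51 fragments, was at the promoter of another gene in the SOX10 locus. A separate vehicle region beside it, chr22:38349618-38350119, had 48 fragments and also overlapped an XY018 region. In this locus 3 regions with vehicle and 1 with XY018 were at promoters of other genes. The 51 fragments may thus be those of a joined region, and a gain cannot be read from this pair. Over the 50 kept H3K27ac regions of the EGFR locus the median ratio was 1.16, beside 1.15 over the genome.

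Other lists of basal genes gave the context for the 9. Of 29 further genes (4 keratins, 9 adhesion genes, 5 myoepithelial genes and 11 genes of basal-like tumours), 20 had SREBP2 at the promoter with vehicle (69.0%, beside 70.6% of all genes) and 19 with XY018 (65.5%, beside 62.7%). RORγ was at 18 (62.1%, beside 62.6%) and 19 (65.5%, beside 61.5%), and H3K27ac at 22 in both (75.9%, beside 66.8% and 68%). The 4 further keratin genes had no factor region at the promoter in any library, like KRT5 and KRT6B, whereas H3K27ac was at KRT15 and KRT16 with vehicle and also at KRT6A with XY018. For the 29, the median pileup ratio was 0.591 (SREBP2), 1.02 (RORγ) and 1.20 (H3K27ac). In single calls, KIT, a receptor tyrosine kinase, lost H3K27ac (14 fragments with vehicle), and ACTA2, smooth muscle actin, lost SREBP2 (5 fragments).

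Of 12 luminal genes, 10 had SREBP2 with vehicle (83.3%) and 11 with XY018 (91.7%), 10 had RORγ in both, and 10 had H3K27ac in both. KRT8, KRT18, GATA3, FOXA1 and ESR1 were among those with H3K27ac, while PGR had none; these genes were picked out after their values were seen. Promoter H3K27ac therefore did not separate basal from luminal genes in this line, and transcript levels were not analysed here. The luminal keratin gene KRT19 gained a RORγ region of 16 fragments with XY018, and SPDEF gained SREBP2 (11 fragments) and lost RORγ (8 fragments). Among the leukocyte genes, CD14 had H3K27ac, and PTPRC and CD3E had no promoter region in any library. Of 4 fibroblast and endothelial genes, COL1A1 and CDH5 had H3K27ac, PDGFRB lost an SREBP2 region of 11 fragments and gained RORγ (4 fragments), and CDH5 lost SREBP2 (24 fragments) and RORγ (11 fragments).

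Across the 6 libraries, each promoter was compared with those of the 49 other listed genes by Euclidean distance over log2(pileup over background + 1), a level. The nearest to KRT5 was LAMB3, a laminin chain, at 0.382, with H3K27ac alone. The nearest to EGFR (0.632) and to FOXC1 (0.545) was CDH3, P-cadherin, with all 3 marks. SOX9 was nearest to ACTA2 (0.633) and SOX10 to MYLK (0.804). KRT14, KRT17 and TP63 had no close match, with distances of 3.43 to OXTR, 4.38 to AGR2 and 3.24 to MIA, and KRT6B had no call to compare.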

How the data were processed

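Chromatin immunoprecipitation sequencing of HCC70 cells was analysed in 6 libraries, grouped by the labels of antibody and treatment, with 1 library per group. The methods of the study give alignment to hg19 with BWA, removal of duplicate and multiply placed tags, and MACS for peaks. The submitters' processing notes instead name Bowtie2, with MACS2 2.1.0 and bedtools. The deposited lists give, per peak, a fold enrichment (a ratio of summit pileup plus 1 over local background plus 1) and the authors' −log10 p and −log10 q values. The deposited display score was not used. Peak names in the H3K27ac lists are numbered to 245055 (vehicle) and 241397 (XY018), so rows were removed by a selection not given in the sources used here.

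Whole fragments at the summit were solved from fold and −log10 p with the Poisson tail that MACS uses, with a tolerance of 5% of the step. All regions of 5 lists and all but 1 of H3K27ac with XY018 gave whole numbers. The inversion was tested on simulated data. The most common local background gave depth, and each gene's pileup ratio was taken over it. Of several promoter regions, the overlapping pair with the highest summed pileup was used. GENCODE 44 on GRCh37 gave starts, exons and untranslated parts. Overlap meant at least 1 bp. Intervals are exact (Poisson, or Clopper-Pearson for shares and for ratios) at 95% and cover counting error only. No p-value was computed. Alternatives were stricter q values, other windows and overlaps, equal list lengths and other scalings. Genes other than the 9 were named where a promoter call differed between treatments or where their levels were nearest. Regions were named as the strongest per locus, with and without a call in the other treatment, or where the interval left out the genome-wide median. The 9 genes and the lists were chosen with earlier results of these data known. The comparison with genome-wide median ratios, locus coverage against all genes and the strongest XY018 regions were added after the values were seen. PECAM1, on the endothelial list, was not analysed here. Python 3.11.15, numpy 2.4.6, pandas 2.3.3, scipy 1.17.1 and pysam 0.24.0 were used. Some listed genes and sequences are not reported here.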

Additional observations from a re-analysis of the deposited data

How the results depend on the processing

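Of 67 alternative values, 59 kept their direction and stayed close to the value given. With promoters of 5 kb either side of a start, SREBP2 with vehicle was at 8 of the 9 genes (81.1% of all genes), and the median RORγ promoter ratio turned from 0.961 to 1.04. At q of at most 1e-05, RORγ with XY018 was at 3 genes (50.7% of all genes), and the kept share in the loci was 54.7% for SREBP2 and 85.7% for RORγ. With lists of equal length, SREBP2 kept 57.6%. With summits within 100 bp, RORγ kept 40% and H3K27ac 46.6%. Genome-wide kept shares at these settings are not given here, so these values cannot be set against the genome. The cause of these shifts was not tested. No paired analysis was possible because each group holds 1 library and no test was run. Counting error weighs most on the weakest promoter regions. KRT17 and KRT14 rest on 5 to 18 fragments, SREBP2 at SOX9 with vehicle on 8 and H3K27ac at TP63 with vehicle on 16. Whether depth sets these numbers was not tested.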
